A study of Zea mays with 9 samples.

Results

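The genes described here encode the 2 enzymes that turn nitrate into ammonium in maize, nitrate reductase and nitrite reductase. They are 4 of the 39656 gene identifiers counted in maize seedlings, chosen by identifier as nitrate reductases (GRMZM2G568636 and GRMZM2G428027) and nitrite reductases (GRMZM2G079381 and GRMZM2G102959). All 4 were among the 22544 genes with enough counts to be tested. RNA was sequenced from whole seedlings aged 14 days, grown in soil in a chamber with long days (light for 15 h), as 3 libraries of each of 3 genotypes. The first is B73, an inbred line and the source of the maize reference genome. P1-ww714 is an allele of p1 (GRMZM2G084799), a gene of chromosome 1 for a MYB regulator of red pigments, and P1-ww714/B73 is the heterozygote. Whether plants labelled P1-ww714 are homozygous is not spelled out, and is read from the contrast with the heterozygote's label. From what is known of the allele, and not from the labels, P1-ww714 carries a duplication of a chromosome 1 segment with an end at p1, so that the 3 genotypes differ in the dose of that segment. The labels do not name the line that carries P1-ww714.

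Nitrate reductase is a cytosolic enzyme that uses reduced pyridine nucleotide and a molybdenum cofactor to turn nitrate into nitrite. Nitrite, which is toxic when it builds up, is then reduced to ammonium inside the plastid by nitrite reductase, which takes electrons from ferredoxin and holds a siroheme. Glutamine synthetase and glutamate synthase bring the ammonium into amino acids. Transcripts of both reductases are known in plants to be induced by nitrate and to respond to light and to time of day. In a reference gene table of another assembly (Zm-B73-REFERENCE-NAM-5.0), GRMZM2G568636 is NNR1 and GRMZM2G079381 carries the name NIR, and both lie on chromosome 4, away from the chromosome of p1. That table does not list GRMZM2G428027 and GRMZM2G102959, so their assignment to the enzymes comes with the list of identifiers and no position is given for them.

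Library totals ran from 9486044 to 16189684 counts. The seedlings' leaf character was checked with markers of the C4 leaf. The 8 mesophyll and 3 bundle sheath markers matched by name were all tested. The mesophyll gene pdk1 (GRMZM2G306345) stood at 17400 to 23400 CPM (library-scaled counts, by TMM). Several other leaf and root markers that were sought had no match by name. Of 2 root markers matched, rtcs (GRMZM2G092542) had 0 counts in every library and rth3 (GRMZM2G377215) stood at 10.2 to 16.6 CPM. These 2 do not settle how much root the samples held. P1-ww714/B73 replicate 1 had the lowest mean correlation with the other libraries (0.965, against 0.974 to 0.982 for the rest) and was the highest of the 9 libraries for 16.2% of tested genes. P1-ww714 replicate 3 was the highest for 15.8% of them (6.98% to 13.5% in the remaining 7), and its mean correlation of 0.975 lay inside the range of the rest. The reductases were high in it, so it is given apart throughout. Leaving it out for that reason lowers the P1-ww714 levels of these genes and narrows their spread within P1-ww714. Intervals and p-values of the reductases without that library are therefore descriptive only. Nothing in the labels says that replicates came from different plants, so p-values measure only how far these samples vary, which could be technical variation. In whole seedlings, more RNA per cell and more cells that express a gene cannot be told apart.

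NNR1, the nitrate reductase with by far the more counts, was at its lowest in B73 and stood higher in every library with the P1-ww714 allele. The B73 libraries held 323, 421 and 451 CPM of NNR1 (replicates 1 to 3). The P1-ww714/B73 libraries held 477, 543 and 465 CPM. The P1-ww714 libraries held 494, 548 and 800 CPM. Neither genotype with the allele overlapped B73, while the 2 genotypes with the allele overlapped each other. The NNR1 means were 398 ± 67.1, 495 ± 42.2 and 614 ± 164 CPM (SD, n = 3) for B73, P1-ww714/B73 and P1-ww714. Of all tested genes, 6.86% had every P1-ww714 library above every B73 library, and 3.47% had every P1-ww714/B73 library above every B73 library. Both comparisons use the same B73 libraries.

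The NNR1 fold did not pass the test over all genes. In P1-ww714 against B73 it was 1.54-fold, a log2 fold of 0.63 with a standard error of 0.19 and a 95% interval of 0.21 to 1.05. The adjusted p was 0.337 with edgeR (quasi-likelihood test, Benjamini-Hochberg adjustment over 22544 genes), and the unadjusted p was 0.00747. DESeq2 gave an adjusted p of 0.0982. In this comparison 0.776% of all tested genes were called in either direction, and 0 of the 4 reductase genes were. In simulated data on 22321 genes, 10.4% of genes set to differ 1.5-fold were called in P1-ww714 against B73 over all expression levels, and recovery at the level of NNR1 was not simulated apart. Without P1-ww714 replicate 3, P1-ww714 stood at 521 ± 38.2 CPM (SD, n = 2), still above all B73 libraries. The fold was then 1.31, with a log2 fold of 0.39 (95% interval 0.03 to 0.75), and the edgeR adjusted p was 1.

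GRMZM2G428027, the other listed nitrate reductase identifier, had between 15 and 74 counts in a library and differed more between replicates than between genotypes. The B73 libraries held 22, 60 and 28 counts, or 1.71, 5.04 and 2.82 CPM. The P1-ww714/B73 libraries held 1.71, 4.71 and 1.56 CPM, and the P1-ww714 libraries 1.40, 2.31 and 4.73 CPM. Each genotype had a single library between 4.71 and 5.04 CPM and its others at or below 2.82, so the groups overlapped fully. Counting error alone is wide at this depth: 15 counts in P1-ww714/B73 replicate 3 carry a 95% Poisson interval of 8.4 to 24.7 counts, and 60 in B73 replicate 2 one of 45.8 to 77.2. These intervals cover counting error only. The log2 fold was -0.18 in P1-ww714 against B73, with a standard error of 0.55 and a 95% interval of -1.39 to 1.04 (edgeR adjusted p = 0.996). How reads shared between similar reductase genes were counted is not stated, so a count this small beside that of NNR1 is uncertain.

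**Figure D1:**
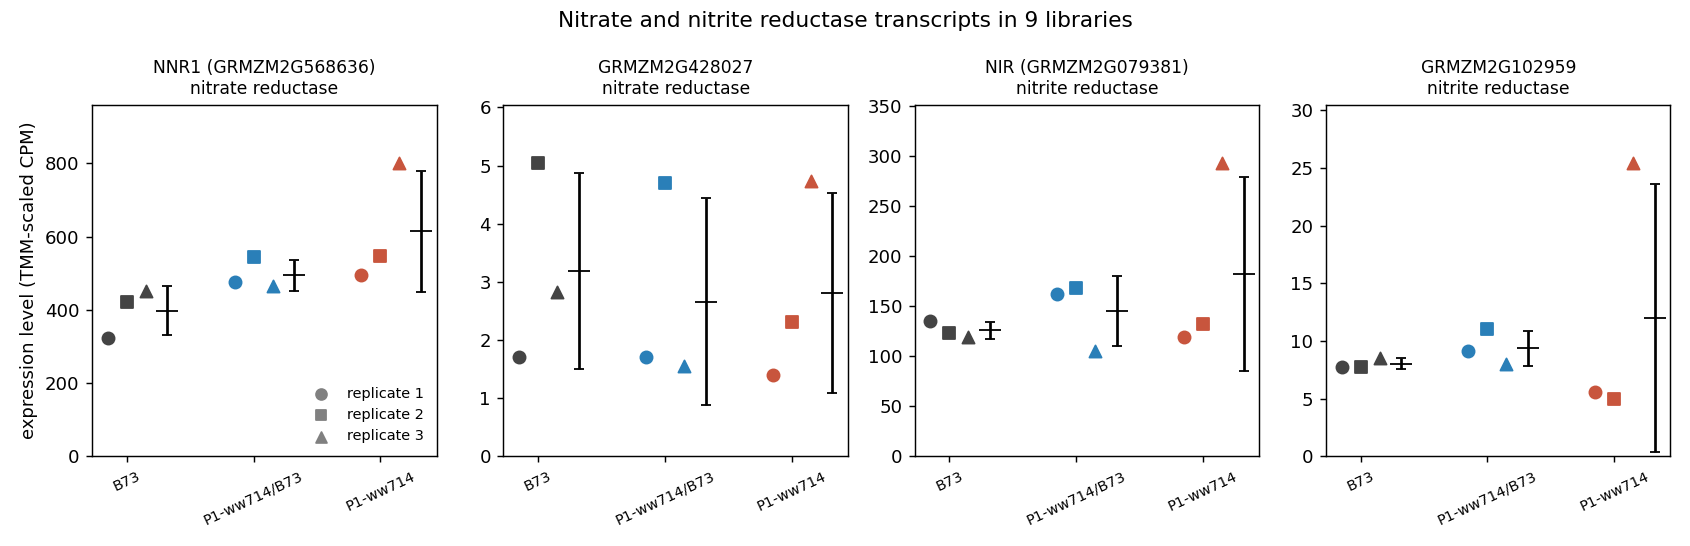
Expression level in TMM-scaled CPM (vertical axes, each from 0) of the 4 reductase genes in B73, P1-ww714/B73 and P1-ww714. Each symbol is a library and its shape the replicate number, and the black bar is the mean ± SD (n = 3). NNR1 is at 465 CPM or more in every library with the P1-ww714 allele and at most 451 CPM in B73, and P1-ww714 replicate 3 stands above the other libraries for NNR1, NIR and GRMZM2G102959.

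NIR (GRMZM2G079381), the nitrite reductase with the more counts, lay at nearly the same level in 5 of the 6 B73 and P1-ww714 libraries and was high in the sixth. The B73 libraries held 135, 123 and 119 CPM. The P1-ww714 libraries held 119, 132 and 293 CPM, so replicates 1 and 2 lay inside the B73 range and replicate 3 at 2.33 times their mean. The P1-ww714/B73 libraries held 162, 168 and 105 CPM, which spans the whole B73 range. In P1-ww714 against B73 the log2 fold was 0.53 with a standard error of 0.30 and a 95% interval of -0.14 to 1.20 (edgeR adjusted p = 0.845). Leaving out P1-ww714 replicate 3 gave means of 126 ± 9.05 CPM (SD, n = 2) in P1-ww714 and 126 ± 8.39 CPM (SD, n = 3) in B73. The log2 fold was then 0.00 (95% interval -0.42 to 0.42, edgeR adjusted p = 1), so the 1.44-fold of the full fit rests on a single library.

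GRMZM2G102959, the nitrite reductase identifier with fewer counts, had a fitted fold whose direction turned when that library was left out. It was even in B73, at 7.79, 7.73 and 8.57 CPM. The P1-ww714/B73 libraries held 9.11, 11.0 and 7.99 CPM. The P1-ww714 libraries held 5.61, 4.96 and 25.4 CPM, from 88, 58 and 387 counts. Replicates 1 and 2 of P1-ww714 were thus below every B73 and P1-ww714/B73 library, and replicate 3 was above every other library. With all 9 libraries the log2 fold in P1-ww714 against B73 was 0.59 with a standard error of 0.51 (95% interval -0.54 to 1.72, edgeR adjusted p = 0.959). With that library left out it was -0.60 with a standard error of 0.20 (95% interval -1.04 to -0.16). The unadjusted p was then 0.0126 and the edgeR adjusted p 0.675, so the lower level did not pass either, and it rests on the other 2 P1-ww714 libraries. In that fit 0.588% of 22776 tested genes were called and 0 of the 4 reductases were.

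In the heterozygote P1-ww714/B73 against B73, none of the 4 genes passed the edgeR test, where 0.111% of all tested genes did. NNR1 was at 1.24-fold (log2 fold 0.31, standard error 0.19, 95% interval -0.10 to 0.73, adjusted p = 1). NIR was at a log2 fold of 0.20 (95% interval -0.47 to 0.88) and GRMZM2G102959 at 0.23 (-0.92 to 1.38). The fitted log2 fold of GRMZM2G428027 was -0.21 (95% interval -1.44 to 1.03). Without P1-ww714/B73 replicate 1, the library with the lowest correlation, NNR1 was at 1.27-fold, NIR at 1.09-fold and GRMZM2G102959 at 1.20-fold, and GRMZM2G428027 at 1.03-fold, each with an adjusted p of 1. DESeq2 called 0.324% of genes here, and without P1-ww714 replicate 3 edgeR called 0.0615%, in each case with 0 of the 4 reductases among them.

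In P1-ww714 against P1-ww714/B73 all 4 fitted log2 folds were above 0, at 0.31 for NNR1, 0.03 for GRMZM2G428027, 0.33 for NIR and 0.36 for GRMZM2G102959. None passed, and neither did any other gene: edgeR called 0% of them, with 680 at an unadjusted p below 0.05, and DESeq2 called 27 (0.12%), no reductase among them. With P1-ww714 replicate 3 left out, edgeR called 0.0176% of genes, and only NNR1 had a value above 0, at 0.07 (95% interval -0.29 to 0.44). The log2 fold of NIR was then -0.21 (-0.63 to 0.22), that of GRMZM2G428027 -0.59 (-1.91 to 0.73) and that of GRMZM2G102959 -0.83 (-1.27 to -0.39, unadjusted p = 0.00184, edgeR adjusted p = 1). That library was left out for its reductase levels, so these intervals and the unadjusted p describe the remaining libraries and are no test.

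Against the middle of B73 and P1-ww714 on the log2 scale, NNR1 in the heterozygote lay at 0.00 with a 95% interval of -0.36 to 0.36. NIR lay at -0.06 (-0.64 to 0.52), GRMZM2G102959 at -0.06 (-1.05 to 0.92) and GRMZM2G428027 at -0.12 (-1.19 to 0.95). No reductase gene and 0% of all tested genes passed edgeR here, with 235 at an unadjusted p below 0.05. DESeq2 called 2 genes (0.00887%), neither a reductase. Each of these intervals includes the fitted level of both parents. When P1-ww714 replicate 3 was left out, GRMZM2G102959 in the heterozygote lay 0.53 above the middle (95% interval 0.19 to 0.87, edgeR adjusted p = 1).

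**Figure D2:**
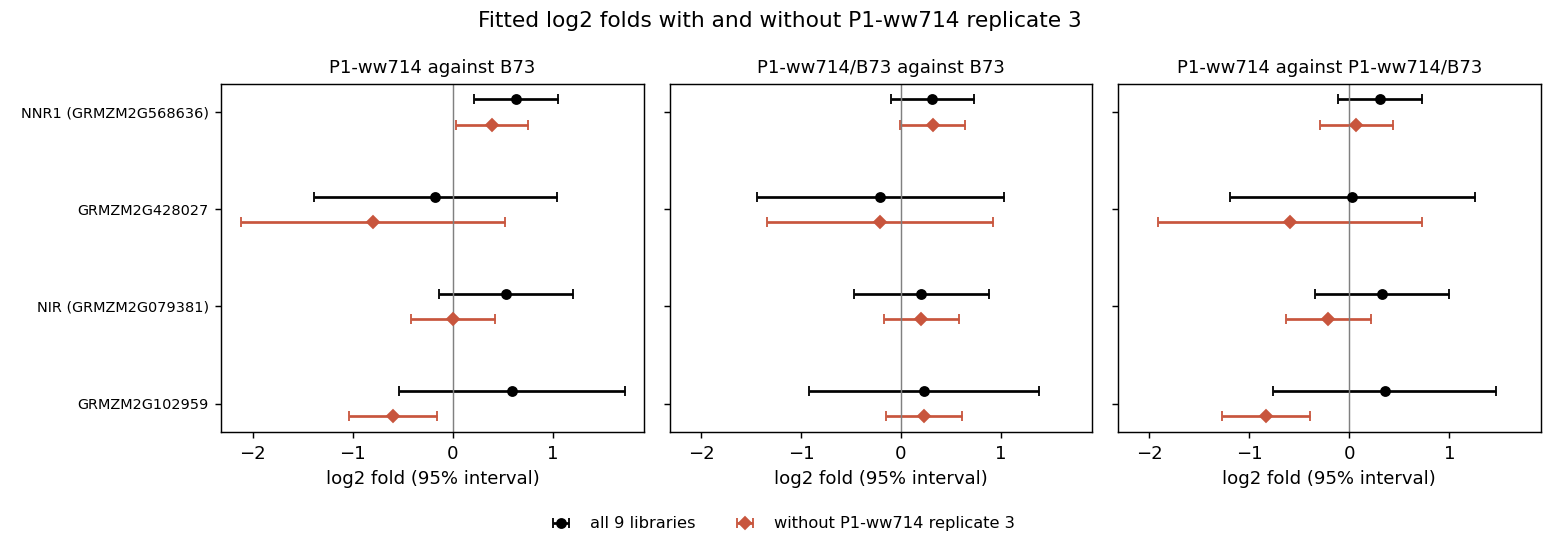
Fitted log2 folds (horizontal axis, points) with 95% intervals (bars) of the 4 reductase genes in 3 comparisons, from all 9 libraries (black circles) and without P1-ww714 replicate 3 (red diamonds). In P1-ww714 against B73, NNR1 stays above 0 in both fits (0.63 and 0.39), NIR goes from 0.53 to 0.00 and GRMZM2G102959 from 0.59 to -0.60.

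P1-ww714 replicate 3 differed from its 2 sister libraries for all 4 genes, in unequal measure. Its level over the mean of replicates 1 and 2 was 1.54-fold for NNR1, 2.33-fold for NIR, 2.55-fold for GRMZM2G428027 and 4.81-fold for GRMZM2G102959. Of the tested genes with counts in P1-ww714, 1.11% were at least 2-fold higher in that library, and the folds of the 4 reductases exceeded those of 95%, 99.5%, 99.7% and 99.9% of genes. That library was set apart for its reductase levels, so these high ranks follow from the choice and test nothing. The rank of GRMZM2G428027 rests on 72 counts there against 22 and 27 in replicates 1 and 2. P1-ww714 replicate 3 was the highest of the 9 libraries for 3 of the 4 genes, and for 15.8% of all tested genes. GRMZM2G428027 was highest in B73 replicate 2. P1-ww714 replicate 3 was the second deepest library, with 15963344 counts, after P1-ww714/B73 replicate 2 with 16189684 counts and 168 CPM of NIR. The part of depth in its levels was not tested. A further identifier outside the list, NAR (GRMZM5G878558), which the reference table also names NR and places on chromosome 5, was added outside the rule for named genes. It held 55.1, 64.4 and 89.0 CPM in B73, 64.1, 113 and 88.7 CPM in P1-ww714/B73, and 65.5, 70.2 and 223 CPM in P1-ww714, so it too was highest in P1-ww714 replicate 3. Its log2 fold in P1-ww714 against B73 was 0.79 (edgeR adjusted p = 0.806) and -0.03 without that library.

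The balance of the listed genes of the 2 enzymes was read within each library, where scaling has no part. Gene lengths are not known here, so the ratio shows differences between libraries and not which enzyme has more transcripts. The sums leave out NAR, which held from 707 counts (B73 replicate 1) to 3394 counts (P1-ww714 replicate 3) in a library. Ratios with NAR included were not computed. Summed counts of the 2 listed nitrate reductases were 2.27, 3.25 and 3.56 times those of the 2 nitrite reductases in B73. In P1-ww714/B73 they were 2.8, 3.06 and 4.15 times. In P1-ww714 they were 3.96, 4.01 and 2.53 times. Replicates 1 and 2 of P1-ww714 were above all B73 libraries, and replicate 3 was below all but B73 replicate 1, so the genotypes overlapped.

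GRMZM2G102959 supplied a small and varying part of the nitrite reductase counts. Its share was 5.46%, 5.89% and 6.74% in B73 and 5.34%, 6.14% and 7.10% in P1-ww714/B73. In P1-ww714 it was 4.49% and 3.62% in replicates 1 and 2 (exact binomial 95% intervals 3.62% to 5.51% and 2.76% to 4.65%) and 7.97% (7.22% to 8.77%) in replicate 3. The first 2 of these shares were the lowest of the 9 and the last was the highest, and their intervals, which cover counting error only, do not overlap that of replicate 3. GRMZM2G428027 supplied between 0.283% and 1.18% of the counts of the 2 listed nitrate reductases, NAR left out. Its share was least in P1-ww714 replicate 1 and most in B73 replicate 2.

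**Figure D3:**
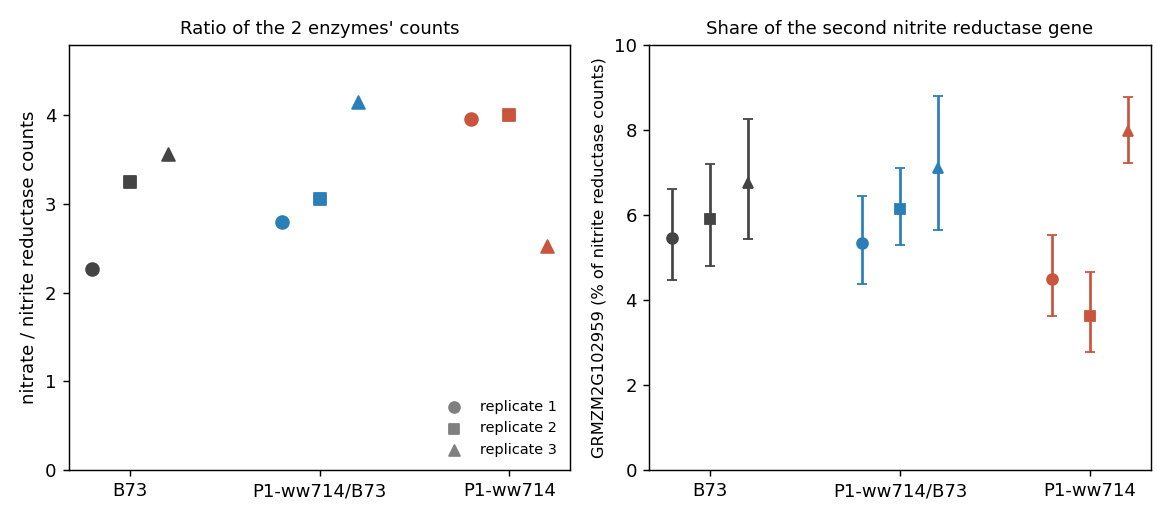
Left, counts of both listed nitrate reductase genes (NAR left out) divided by counts of both nitrite reductase genes in each library (symbols, shape for the replicate number). Right, GRMZM2G102959 as a percentage of the nitrite reductase counts, with exact binomial 95% intervals. P1-ww714 replicates 1 and 2 have ratios of 3.96 and 4.01 and shares of 4.49% and 3.62%, while replicate 3 has a ratio of 2.53 and a share of 7.97%.

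Genes around the reductases in nitrogen metabolism were matched by name, 32 identifiers of which 26 were tested, and 0 of the 26 passed edgeR in P1-ww714 against B73 or in P1-ww714/B73 against B73. Their highest library was P1-ww714 replicate 3 for 13 of the 26 (50%), against 15.8% of all tested genes. That library was set apart for its reductase levels, and genes of a pathway can vary together. Counts of pathway genes highest in it, here and below, are therefore descriptive and test nothing. The tested genes named here are the best expressed of each list.

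Upstream, nitrate transport held 7 identifiers and 3 tested genes, with a median log2 fold of 0.32 in P1-ww714 against B73, where the median of all tested genes was 0. Without P1-ww714 replicate 3 the median of the list was 0.20. NRT1.2 (GRMZM5G811593), a nitrate transporter by its name, was at 25.6 to 33.1 CPM in B73 and 32.6 to 42.5 CPM in P1-ww714. NAR2.1 (GRMZM2G179294), by its name a partner protein of high-affinity nitrate transporters, was low, at 0.908 to 1.85 CPM in B73 and 1.34, 1.28 and 3.15 CPM in P1-ww714. The untested identifiers of the list are given outside the rule for named genes. Both identifiers of Nrt1.1 had 0 counts in every library, and nrt2 (GRMZM2G010280) and nrt2.2 (GRMZM2G010251) had 22 and 26 counts over all 9 libraries. The only NIN-like gene matched, NLP8 (GRMZM2G176655), of a family of nitrate-responsive regulators, had a log2 fold of -0.31.

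On the cofactor side of the pathway no tested gene passed. Ferredoxins and their reductase, which carry electrons to nitrite reductase in the plastid, had 6 tested genes with a median log2 fold of 0.15, and without P1-ww714 replicate 3 of -0.12. FDX1 (GRMZM2G122337) had 482, 532 and 727 CPM in P1-ww714 and 516 to 598 CPM in B73, and fdx3 (GRMZM2G053458) 249, 231 and 295 CPM against 199 to 244 CPM. For 5 of the 6 genes P1-ww714 replicate 3 was the highest library, as it was for 15.8% of all tested genes. The 3 tested molybdenum cofactor genes had a median of 0.07, and without P1-ww714 replicate 3 of -0.03. CNX5 (GRMZM2G157836) was at 28.2 to 31.6 CPM in B73 and 29.0 to 32.4 CPM in P1-ww714, and CNX5 (GRMZM2G160842) at 5.85 to 6.22 and 5.68 to 6.17 CPM. None of these 3 cofactor genes was highest in P1-ww714 replicate 3. The pentose phosphate genes pgd2 (GRMZM2G127798) and pgd3 (GRMZM2G440208), for a dehydrogenase that yields reduced pyridine nucleotide, had log2 folds of 0.24 and 0.18 and were both highest in that library. Without it their log2 folds were 0.20 and -0.18.

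Downstream, the 9 ammonium assimilation genes had a median log2 fold of 0.08, and without P1-ww714 replicate 3 of -0.13. fgs1 (GRMZM2G036609), for ferredoxin-dependent glutamate synthase, was at 625 to 964 CPM in B73 and 637 to 882 CPM in P1-ww714. Gln1-4 (GRMZM2G036464), a glutamine synthetase gene, was at 426 to 645 CPM in B73 and 492 to 645 CPM in P1-ww714. Of the 2 tested asparagine synthetase genes, asn1 (GRMZM2G074589) was at 138 to 164 and 142 to 157 CPM, and asn2 (GRMZM2G093175) at 2.12 to 2.73 and 2.65 to 3.48 CPM.

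A single pathway gene, named after its values were seen, was called by edgeR when P1-ww714 replicate 3 was left out. GLN6 (GRMZM2G050514), a glutamine synthetase gene that the reference table places on chromosome 1, held 60.9, 77.7 and 75.2 CPM in B73 and 45.2, 67.7 and 52.9 CPM in P1-ww714/B73. In P1-ww714 it held 14.9, 15.7 and 42.8 CPM, all below B73, with replicate 3 again above its sisters. With all libraries its log2 fold was -1.54 with a standard error of 0.35 and an edgeR adjusted p of 0.105. DESeq2 gave an adjusted p of 0.00105 there, where it called 1.38% of genes. When P1-ww714 replicate 3 was left out, the log2 fold became -2.22, with an edgeR adjusted p of 0.00126. That fit called 0.588% of genes. Dropping that library, set apart after values were seen, enlarges the GLN6 fold and narrows its spread within P1-ww714. The adjusted p-values of GLN6 without it, here and below, are therefore descriptive and no test. In P1-ww714 against P1-ww714/B73 with all libraries, neither edgeR nor DESeq2 called any gene of the ammonium assimilation list. The lowest log2 fold of the list there was -1.17, and its lowest DESeq2 adjusted p was 0.247. Without P1-ww714 replicate 3, GLN6 was at -1.86 in that comparison (edgeR adjusted p = 0.0166), where 0.0176% of genes were called.

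**Figure D4:**
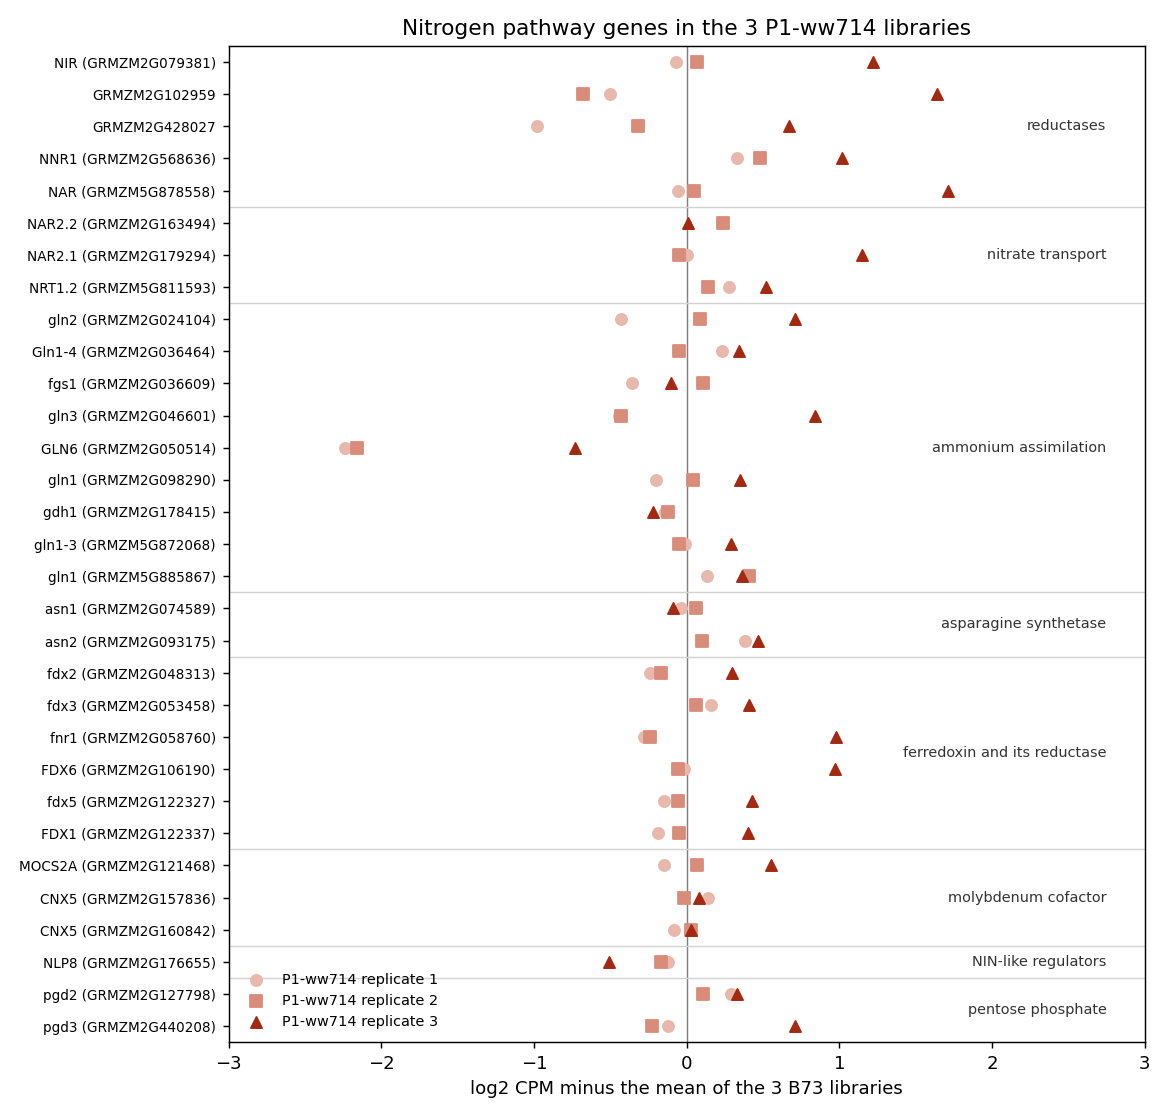
Log2 CPM minus the mean of the 3 B73 libraries (horizontal axis) in each P1-ww714 library, for the 4 reductases, NAR and the 26 tested pathway genes, grouped by list. Triangles (replicate 3) lie to the right of circles and squares (replicates 1 and 2) for all 5 reductase identifiers, and GLN6 lies left of 0 in all 3 libraries.

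Cell stress genes (25 heat shock and heat shock factor identifiers, 22 tested) were also high in P1-ww714 replicate 3. Their summed level was 3300 CPM there, 2890 and 2700 CPM in replicates 1 and 2, 2390 to 2630 CPM in B73 and 2240 to 2950 CPM in P1-ww714/B73. Of the 22, 11 had their highest level in that library, against 15.8% of all tested genes. The summed mesophyll markers stood at 44700 CPM in it, 35700 and 36800 CPM in its sisters, 34300 to 39600 CPM in B73 and 34100 to 47800 CPM in P1-ww714/B73. Summed bundle sheath markers were at 8200 CPM in it, 6090 and 7170 CPM in its sisters, and 6010 to 8830 CPM in B73. The root marker rth3 (GRMZM2G377215) stood at 13.1 CPM in it against 16.6 and 10.9 CPM in its sisters. The part of any of these in the reductase levels was not tested.

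The 2 nitrite reductases had the closest patterns among the 4 genes. Their log2 CPM correlated at 0.86 over the 9 libraries and at 0.46 over the 8 other than P1-ww714 replicate 3, as a description of points that share genotype and depth. NNR1 and NIR correlated at 0.73 and 0.20 over the same sets of libraries, and the other pairs at 0.44 to 0.61 and -0.13 to 0.42. Genes of like pattern were sought among 2046 other named genes, by Pearson correlation of log2 CPM over the 9 libraries and in the same descriptive sense. Nearest to NNR1 were ACR4 (GRMZM2G383408), NAC1 (GRMZM2G347043), BCH1 (GRMZM2G164318), cgs1 (GRMZM2G075153) and sat2 (GRMZM2G013430), with correlations of 0.964 to 0.901, and 0.947 to 0.775 without P1-ww714 replicate 3. Nearest to NIR were CCR (GRMZM2G131205), PIP2-1 (GRMZM2G014914), pip2b (GRMZM2G092125), PIP2-4 (GRMZM2G154628) and G3PD (GRMZM2G337113), at 0.974 to 0.919, and 0.659 to 0.958 without it. Nearest to GRMZM2G102959 were MYB63 (GRMZM2G017268), pip2-5 (GRMZM2G178693), TCP4 (GRMZM2G445944), PIP2-4 and gln3 (GRMZM2G046601), at 0.934 to 0.871, and 0.510 to 0.873 without it. Nearest to GRMZM2G428027 were PDE191 (GRMZM2G113181), shbp1 (GRMZM5G814089), ChlI (GRMZM2G419806), et1 (GRMZM2G157574) and rbcS (GRMZM2G113033), at 0.906 to 0.849, and 0.891 to 0.823 without it. No gene but PIP2-4 was in more than 1 of these 4 sets.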

How the data were processed

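The authors extracted total RNA from maize seedlings and made libraries by standard Illumina protocols, per the labels' protocols. Whole-number read counts, not normalized, were deposited by the authors for each gene identifier and library. TopHat and HTSeq are named in the submitters' processing notes. Versions, build, annotation, strandedness and the treatment of shared reads were not stated in those notes or the labels. Names came from a reference table that matched 18775 of 39656 identifiers (47.3%). No replicate pair of libraries agreed within sampling noise (chi-square per gene 6.35 to 18.46).

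Counts were analysed in R 4.3.3 with edgeR 4.0.16 (filterByExpr with a minimum count of 10, TMM scaling, quasi-likelihood F test over all 9 libraries in 1 fit, Benjamini-Hochberg threshold 0.05 over all tested genes). Standard errors were the log2 fold over the square root of F, with 95% intervals from the t distribution. Log2 CPM used a prior count of 2. The procedure was tested on simulated counts with 200 changed genes. Without P1-ww714 replicate 3 that group has 2 libraries, and the spread is shared with the other groups. Alternatives were DESeq2 1.42.0, RLE scaling, testing without the filter, a replicate block, a fit of only the compared groups, and leaving out each library.

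The members and lists were chosen with earlier results of these data known. Named genes were the members, the 2 best expressed tested genes of each pathway list, any list gene past the threshold, and for each member the 5 named genes of average log2 CPM of at least 1 with the highest correlation. NAR and the untested nitrate transport identifiers were added outside this rule. List patterns had been written for symbols, which are mostly locus numbers in the reference table, and were matched on its symbols and synonyms. Names of other genes that share a pattern were taken out by hand. Lists for ammonium transport, siroheme and haemoglobin gave no usable match and were left out.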

Additional observations from a re-analysis of the deposited data

How the results depend on the processing

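No reductase gene passed in any comparison under any alternative, so the direction of a log2 fold is the only thing that could turn. In P1-ww714 against B73, leaving out each library in turn gave log2 folds of 0.39 to 0.76 for NNR1, -0.80 to 0.33 for GRMZM2G428027, 0.00 to 0.76 for NIR and -0.60 to 0.95 for GRMZM2G102959. The lowest of each, NNR1 included, came without P1-ww714 replicate 3. In P1-ww714/B73 against B73 these ranges were 0.18 to 0.42 for NNR1, -0.96 to 0.30 for GRMZM2G428027, 0.08 to 0.39 for NIR and 0.09 to 0.33 for GRMZM2G102959. For P1-ww714 over P1-ww714/B73 the ranges were 0.07 to 0.45, -0.59 to 0.78, -0.21 to 0.56 and -0.83 to 0.72 in the same order, and against the middle of the parents -0.07 to 0.12, -0.87 to 0.19, -0.18 to 0.21 and -0.24 to 0.53. Over all alternatives the adjusted p of NNR1 in P1-ww714 against B73 ran from 0.0982 (DESeq2) to 1.

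RLE size factors, DESeq2 and no filter turned no direction, nor did only the groups compared, which has no value against the middle of the parents because that comparison uses all 3 groups. With the replicate number as a block, GRMZM2G102959 against the middle of the parents went from -0.06 to 0.10, and the number of called genes went from 175 to 243 in P1-ww714 against B73 and from 25 to 18 in P1-ww714/B73 against B73. The block made NNR1 0.62 in P1-ww714 against B73 (adjusted p = 0.174). Deviations of same-numbered libraries correlated at -0.12 to 0.50, with 4 of 9 above 0.1, so the numbers were not shown to pair the samples. DESeq2 called 311 genes in P1-ww714 against B73, 73 in P1-ww714/B73 against B73 (edgeR 25), 27 in P1-ww714 against P1-ww714/B73 and 2 against the middle of the parents (edgeR 0 in both). With only the groups compared, the 25 calls became 0. Without single libraries they became 6 to 20, and the 0 calls of P1-ww714 against P1-ww714/B73 became up to 4. The cause of these shifts was not tested. Depth limits GRMZM2G428027 most, with 15 to 74 counts in a library.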
